A study of Mus musculus with 36 samples.

Results

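The 34 genes described here encode enzymes of cholesterol synthesis and of fatty acid synthesis, together with the proteins that set their transcription. They were chosen by gene symbol as genes of the SREBP pathway, and make up 34 of the 49585 features in the deposited gene tables. The sterol branch holds 18 of them, the regulators 5 and the fatty acid branch 11, and the branches are kept apart throughout. SREBPs are transcription factors that are made as membrane proteins of the endoplasmic reticulum. Scap escorts them to the Golgi apparatus, where they are cut and released to the nucleus, while Insig proteins hold Scap back when sterols are plentiful. Srebf2 encodes the form best known for the sterol genes and Srebf1 the form best known for the fatty acid genes, and the apical membrane of the urothelium, the epithelium that faces the urine, is rich in cholesterol.

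Total RNA of whole bladder from C57BL/6 mice was sequenced in 36 libraries. All animals, in both groups, had undergone bilateral adrenalectomy, surgery that takes out the adrenal glands, where corticosterone is made. The 18 CORT libraries came from mice then given corticosterone, the main glucocorticoid of the mouse, at a time of day that the labels call inactive, and the 18 vehicle libraries from mice given vehicle. Each treatment had 3 replicates per time, and the labels give 6 times: 4, 8, 12, 16, 20 and 24 h. The series title names the control of the bladder clock and of daily micturition by glucocorticoids as its subject. No animal with intact adrenal glands was analysed here, and the labels used here give neither the age of the mice nor what time zero is. Whether replicates came from different mice is not stated, and p-values therefore reflect only how much these samples vary, part of which may be technical. The labels' extraction text describes blood RNA with globin removal, whereas every sample is labelled as bladder. Libraries held on average 11016413 counts in CORT and 10682675 counts in vehicle, with means of 9591304 to 12311337 for single replicate numbers. Values below are quantile-normalized read counts per gene on 1 scale for all 36 libraries. Equal ranks get equal values under that scaling, so the same value can recur between libraries. Because the scale does not correct for gene length, levels are not compared between genes.

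Some libraries need naming before the results. Replicate 3 carries no time tag, so its time was read from its titles, and its libraries were registered later than the others. It may therefore be a separate batch, with 1 library in each of the 12 groups. In addition, 8 replicate 2 libraries, those of 4, 8, 16 and 20 h in both treatments, carry different names in the full gene tables and in the authors' tables of selected genes over 18 libraries. Under the second naming, the vehicle libraries of 16 and 20 h are called CORT 4 and 8 h. The CORT libraries of 16 and 20 h are called vehicle 4 and 8 h. The other 4 change their time but not their treatment. The names of the full tables are used here. Values without these 8 libraries are given for the daily pattern of the sterol branch and for the rhythm counts. They are also given for treatment differences over the whole day, at 8 h and at 16 h. The daily courses of single members, of the regulators and of the fatty acid branch are given with these libraries kept.

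Promoter sequences are shown first because they hold the letters that SREBPs and their partner factors are known to read. RefSeq sequences (GRCm38.p6) from 250 bases before to 50 bases after the transcription start were matched for 14 of the 18 sterol members, all 5 regulators and 8 of the 11 fatty acid members. Both strands were searched for TCACNCCAC (a form of the sterol regulatory element) and for its shorter core TCACNCCA, which lies within every match of the longer one. They were also searched for CACGTG (an E-box, read by clock proteins, SREBP-1 and other factors) and for CCAAT (read by NF-Y, a partner of SREBPs). Each stretch runs 5′ to 3′ on the strand of the gene, with every match in capitals. Hmgcs1 is shown for the sterol regulatory element at chr13:119690214-119690313 (plus strand), and Srebf2 for its core at chr15:82147081-82147180 (plus strand). Sc5d and Insig1 are shown for the E-box at chr9:42264301-42264400 (minus strand) and chr5:28071263-28071362 (plus strand). Mvd and Fasn are shown for repeated CCAAT at chr8:122443423-122443522 (minus strand) and chr11:120824548-120824647 (minus strand).
Hmgcs1: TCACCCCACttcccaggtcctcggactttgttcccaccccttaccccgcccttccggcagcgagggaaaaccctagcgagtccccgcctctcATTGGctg
Srebf2: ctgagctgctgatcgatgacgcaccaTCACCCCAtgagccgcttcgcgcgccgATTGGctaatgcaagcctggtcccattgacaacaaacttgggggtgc
Sc5d: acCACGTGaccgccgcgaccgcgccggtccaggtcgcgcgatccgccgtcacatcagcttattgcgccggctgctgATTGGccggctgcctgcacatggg
Insig1: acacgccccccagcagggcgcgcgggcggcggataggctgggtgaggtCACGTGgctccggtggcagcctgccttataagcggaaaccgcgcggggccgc
Mvd: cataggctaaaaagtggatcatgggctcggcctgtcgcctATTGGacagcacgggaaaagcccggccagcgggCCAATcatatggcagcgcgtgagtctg
Fasn: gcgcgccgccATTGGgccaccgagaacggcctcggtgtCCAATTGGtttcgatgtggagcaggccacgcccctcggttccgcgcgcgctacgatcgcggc
A gene was counted where any of its windows held a match, and Pmvk, Scap and Me1 have 2 windows and Dhcr7, Insig2 and Srebf1 have 3. CCAAT was present for 13 of the 14 sterol genes (92.9%), for 4 of the 5 regulators and for 5 of the 8 fatty acid genes (62.5%), against 41.1% of all 27025 genes with windows of the same length. CACGTG was present for 3 of the 14 sterol genes (Dhcr7, Hsd17b7 and Sc5d, 21.4%), for Insig1 and Scap, and for Elovl5, against 8.09% of all genes. TCACNCCAC was present for 1 sterol gene, Hmgcs1 (7.14%), against 1.44% of all genes, and its core for Hmgcs1, Msmo1 (together 14.3% of the sterol genes) and Srebf2, against 4.97%. A match describes letters in this window and does not show binding.

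All 34 members passed the filter on low values, as did 17867 of the 49585 features. The clearest pattern among them was in the sterol branch over the day: in vehicle libraries all 18 sterol members had their highest mean at 16 h, and in CORT libraries 14 of 18 did. The regulators and the fatty acid genes had no such common hour. CORT minus vehicle was small over the whole day, with values between -0.18 and 0.20 on the log2 scale, and was positive for most members at 8 h. No member passed 0.05 after adjustment over all features in any of the tests of treatment, time or rhythm, so the values below describe patterns that single genes do not carry past the threshold. In bulk tissue, fewer cells of a type and less RNA per cell cannot be told apart.

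**Figure D1:**
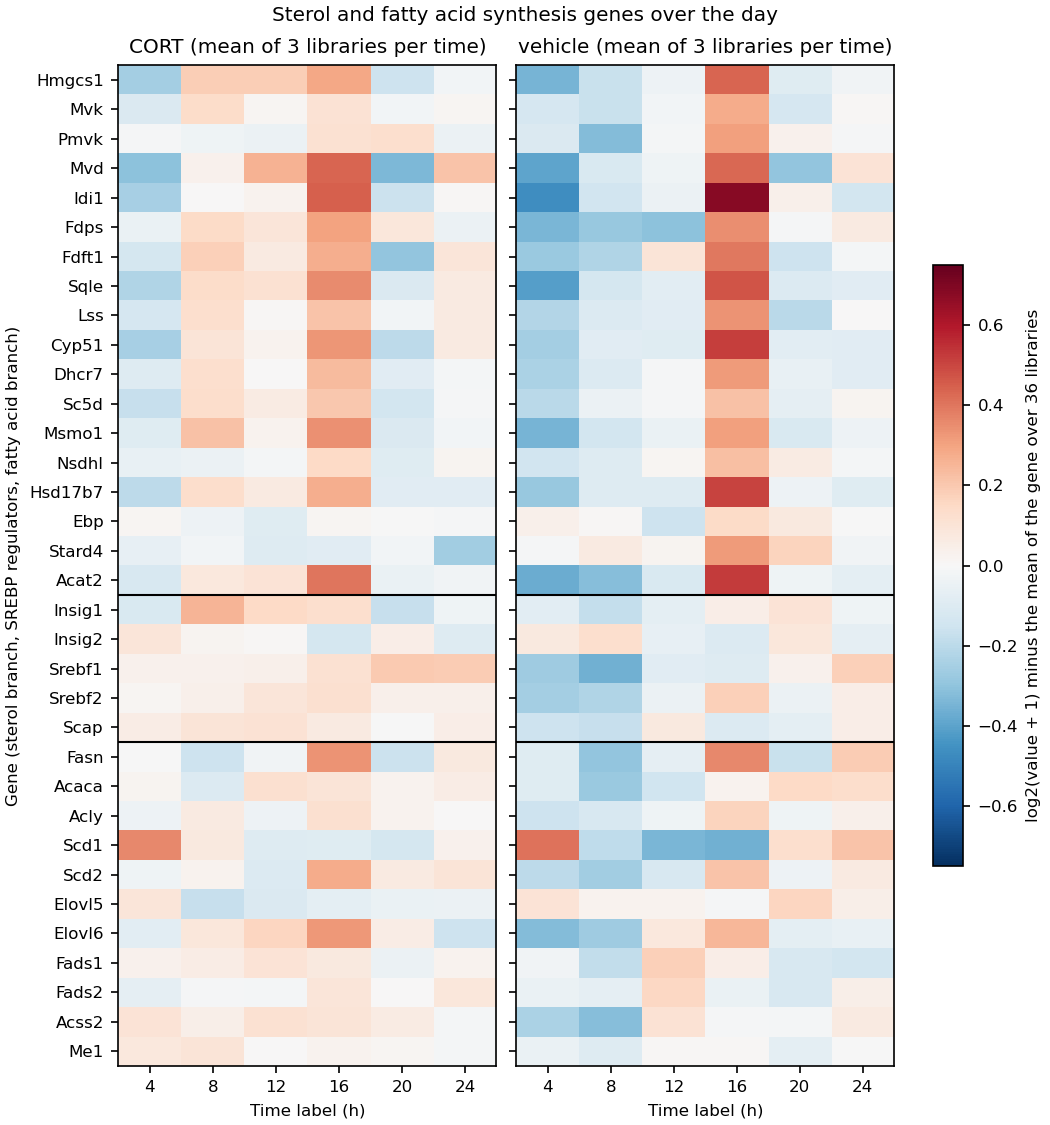
Mean log2 level of each of the 34 members at the 6 time labels, as the deviation from the gene's mean over all 36 libraries, with CORT on the left and vehicle on the right (mean of 3 libraries per cell). The sterol genes are highest at 16 h in 14 of 18 rows under CORT and in 18 of 18 under vehicle.

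The sterol branch was compared over the day within each treatment. The rhythm test was a limma F test of a 24 h cosine and sine, and the test over time a limma F test over the 6 times. Late (16, 20 and 24 h) minus early (4, 8 and 12 h) was tested as well. All were made on log2(value + 1), so fold changes understate those of low genes. The branch level of a library is the mean over the 18 genes of the log2 deviation from each gene's 36-library mean. CORT libraries averaged -0.14 ± 0.10 at 4 h, 0.09 ± 0.18 at 8 h, 0.05 ± 0.17 at 12 h, 0.25 ± 0.06 at 16 h, -0.09 ± 0.15 at 20 h and 0.00 ± 0.30 at 24 h (± gives the SD of 3 libraries). Vehicle libraries averaged -0.25 ± 0.15 at 4 h, -0.14 ± 0.03 at 8 h, -0.06 ± 0.23 at 12 h, 0.38 ± 0.24 at 16 h, -0.06 ± 0.06 at 20 h and -0.03 ± 0.17 at 24 h. In both treatments the 3 libraries of 16 h lay above the 3 libraries of 4 h and of 20 h, and in vehicle the lowest single library was 4 h replicate 1 and the highest 16 h replicate 1.

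**Figure D2:**
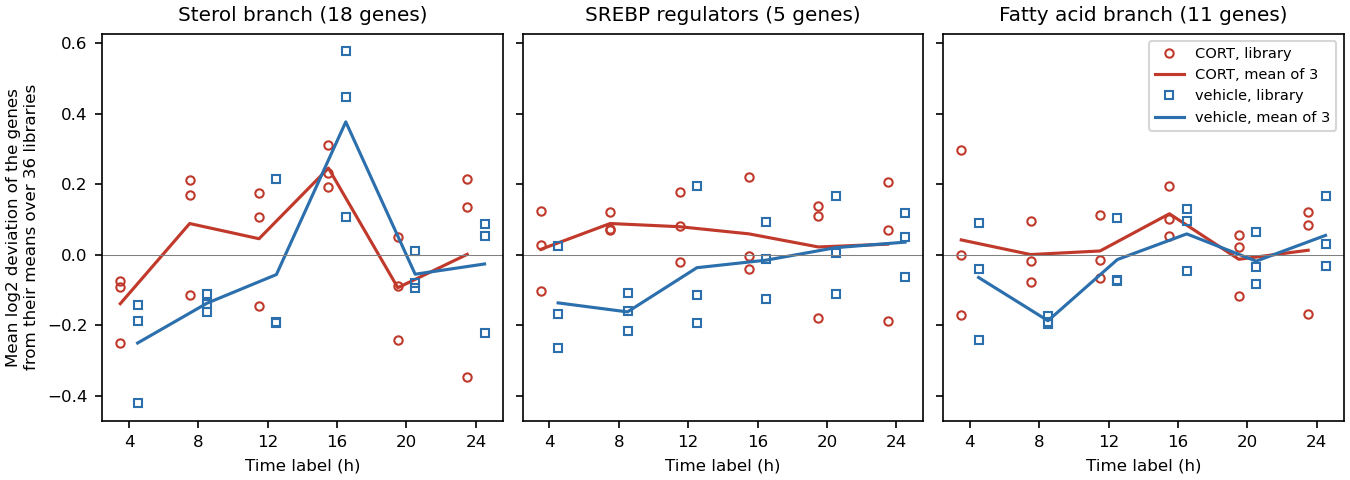
Mean log2 deviation of the sterol, regulator and fatty acid members in every library against the time label, with CORT and vehicle side by side (points are libraries, lines the means of 3). The sterol panel peaks at 16 h, with means of 0.25 in CORT and 0.38 in vehicle.

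The early part of the sterol pathway was carried by Acat2 and Hmgcs1. Acat2 (cytosolic acetoacetyl-CoA thiolase, the first enzyme of the branch; chr17:12942890-12960747, minus strand, mm10) stood at 243, 234 and 251 at 4 h, 306, 242 and 290.2 at 8 h, 268, 305 and 278 at 12 h, 329, 369 and 347 at 16 h, 260.5, 208 and 302 at 20 h and 208, 285 and 291 at 24 h in CORT libraries. In vehicle libraries Acat2 stood at 177, 218 and 218 at 4 h, 197, 243 and 196 at 8 h, 241, 292 and 205 at 12 h, 395, 393 and 349.8 at 16 h, 283, 274 and 219.7 at 20 h and 245, 294 and 218 at 24 h. Its 16 h values were above all other values of vehicle, and in CORT they were likewise the 3 highest of the 18 libraries. The fitted amplitude of Acat2 (mean to peak, log2) was 0.19 ± 0.07 in CORT with a peak at 14.4 ± 1.3 h (limma, adjusted p = 0.802), and 0.35 ± 0.08 in vehicle with a peak at 17.0 ± 0.85 h (limma, adjusted p = 0.10; ± gives the SE, 18 libraries). Hmgcs1 (HMG-CoA synthase; chr13:119690379-119708260, plus strand), whose promoter holds the sterol regulatory element shown above, stood at 1809.5, 1616 and 1886 at 4 h, 2481, 2066 and 2694 at 8 h, 1989, 2719 and 2571 at 12 h, 2628, 2679 and 2458 at 16 h, 1675, 1861 and 2187 at 20 h and 1529, 2605 and 2271 at 24 h in CORT libraries. In vehicle libraries Hmgcs1 stood at 1416, 1762 and 1835 at 4 h, 1886, 1879 and 1870.4 at 8 h, 1777, 2469.9 and 1982 at 12 h, 3122, 2970.3 and 2530.0 at 16 h, 2108, 2022 and 1827 at 20 h and 2091, 2354 and 1813 at 24 h. The vehicle values of 16 h were the 3 highest of vehicle, whereas in CORT single libraries of 8, 12 and 24 h reached the level of 16 h. Its amplitude was 0.23 ± 0.08 in CORT with a peak at 13 ± 1.3 h (limma, adjusted p = 0.802), and 0.27 ± 0.07 in vehicle with a peak at 16.4 ± 0.99 h (limma, adjusted p = 0.171).

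In the isoprenoid part of the pathway, Idi1 (isopentenyl diphosphate isomerase; chr13:8885501-8892451, plus strand) stood at 539, 375 and 452 at 4 h, 625, 408 and 605 at 8 h, 471, 601 and 569.6 at 12 h, 667, 765 and 762 at 16 h, 609, 395 and 452 at 20 h and 397, 582 and 671 at 24 h in CORT libraries. In vehicle libraries Idi1 stood at 333, 451 and 387 at 4 h, 454, 484 and 514 at 8 h, 435, 624 and 512 at 12 h, 1109, 861 and 666 at 16 h, 527, 637 and 491 at 20 h and 492, 559 and 417 at 24 h. Vehicle 16 h replicate 1 was the highest of all 36 libraries, and the 3 vehicle libraries of 16 h were above the other 15, although replicate 3 was above 20 h replicate 2 by little. Idi1 had the largest amplitude of any member in vehicle, 0.43 ± 0.09 with a peak at 16.2 ± 0.82 h (limma, adjusted p = 0.0877), against 0.21 ± 0.10 in CORT (limma, adjusted p = 0.898). Fdps (farnesyl diphosphate synthase; chr3:89093588-89101959, minus strand) stood at 395, 359 and 388 at 4 h, 518, 355 and 448 at 8 h, 355, 452 and 459 at 12 h, 496, 503 and 464 at 16 h, 419, 399 and 436 at 20 h and 265, 464 and 458 at 24 h in CORT libraries. In vehicle libraries Fdps stood at 302, 326 and 306 at 4 h, 318, 349.9 and 306 at 8 h, 306, 419.9 and 250.4 at 12 h, 558, 612 and 374 at 16 h, 385, 415 and 376 at 20 h and 467, 439 and 347 at 24 h. Its late minus early difference was 0.06 ± 0.11 in CORT (limma, adjusted p = 0.999) and 0.45 ± 0.11 in vehicle (limma, adjusted p = 0.137), and 26.7% of its exonic bases are shared with Gm43738 on the same strand, so that its count is uncertain. In vehicle, the 16 h value of replicate 3 was below both 24 h values of replicates 1 and 2. Stard4, which carries sterol between membranes, stood at 142, 94.3 and 122 at 4 h, 108, 128 and 129.9 at 8 h, 90.1, 135 and 126 at 12 h, 126, 125 and 101 at 16 h, 149.5, 109.8 and 109 at 20 h and 101, 106 and 101 at 24 h in CORT libraries. In vehicle libraries Stard4 stood at 130.5, 126 and 112 at 4 h, 148, 132 and 111 at 8 h, 134, 120.3 and 122 at 12 h, 247, 157 and 94.8 at 16 h, 135, 156 and 127 at 20 h and 151, 106 and 111 at 24 h. Its single high value, vehicle 16 h replicate 1, had no counterpart in replicate 3, which was the lowest vehicle library, and Stard4 had an amplitude of 0.05 ± 0.07 in CORT and 0.13 ± 0.10 in vehicle.

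The other 13 sterol members are given by their lowest, median and highest libraries. Sqle (squalene epoxidase) had its lowest, median and highest values at 694, 979 and 1289 in CORT and 548, 843 and 1368 in vehicle, with a vehicle amplitude of 0.30 ± 0.08 (limma, adjusted p = 0.215). Mvd (mevalonate diphosphate decarboxylase) had 82.8, 137 and 201 in CORT and 70.3, 114 and 209 in vehicle, and its highest and lowest group means differed by 0.78 in CORT and 0.82 in vehicle (log2). Cyp51 (lanosterol demethylase) had 439, 573 and 791 in CORT and 422, 549 and 999.9 in vehicle, the last of these in 16 h replicate 1. The lowest vehicle library was 4 h replicate 1 for Fdft1 (squalene synthase), Sqle, Lss (lanosterol synthase), Cyp51, Mvd, Dhcr7 (the reductase of the final step), Msmo1, Nsdhl and Hsd17b7, the last 3 of which act in removing methyl groups from the sterol ring. In CORT, 24 h replicate 1 was the lowest library for Sqle, Lss, Dhcr7, Sc5d (a sterol desaturase), Msmo1 and Hsd17b7. Fdft1 had 361, 533 and 684 in CORT and 353, 473 and 745 in vehicle. Lss had 378, 517 and 582 in CORT and 356, 439.6 and 665 in vehicle. Dhcr7 had 241, 367 and 413 in CORT and 245, 322 and 472 in vehicle. In each of these 3 genes the vehicle range was the wider one. Sc5d had 805, 1022 and 1242 in CORT and 833, 974 and 1221 in vehicle. Msmo1 had 723, 1053 and 1459 in CORT and 694, 929 and 1445 in vehicle. Nsdhl had 203, 256 and 283 in CORT and 193, 244 and 337 in vehicle. The highest vehicle library of Msmo1 and of Nsdhl was 16 h replicate 1, and that of Sc5d 12 h replicate 2. Hsd17b7 had 253, 370.2 and 509.7 in CORT and 277, 357 and 615 in vehicle. The kinase Mvk had 211, 257 and 315 in CORT and 203, 241 and 365 in vehicle, and the kinase Pmvk 67.5, 87.1 and 118 in CORT and 60.0, 84.0 and 162 in vehicle. Ebp, a sterol isomerase, ranged from 173 to 279 in CORT and from 167 to 276 in vehicle, its highest vehicle library being 20 h replicate 3. Of the sterol genes, Fdft1 shares 18.3% of its exonic bases with Ctsb, Hmgcs1 12.1% with Gm48342 and Idi1 9.2% with Gm48574, all on the opposite strand; the counting rule is not given in the sources used here.

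As a branch, the sterol genes were highest at 16 h in 14 of 18 cases in CORT and 18 of 18 in vehicle, against 18% of all features in CORT and 25.6% in vehicle. Their lowest mean fell at 4 h for 11 genes in CORT and 14 in vehicle, against 21.2% of all features in CORT and 14.9% in vehicle. Fitted peaks lay between 11 and 16 h for 16 of 18 in CORT (22.9% of all features) with a median of 14 h. In vehicle they lay between 15 and 18 h for 16 of 18 (16.4% of all features) with a median of 16.3 h. These windows were chosen for each treatment after its values were seen: 2 of 18 peaks lay at 15 to 18 h in CORT and 4 of 18 at 11 to 16 h in vehicle. In the common window of 14 to 20 h there were 8 of 18 in CORT (25.8% of all features) and 17 of 18 in vehicle (29.6%). That window starts at the CORT median of 14 h, so these counts depend on where it is placed. The median amplitude was 0.14 in CORT and 0.22 in vehicle, against 0.10 in CORT and 0.12 in vehicle over all features. A 16 h over 4 h ratio, chosen after these values were seen and so given with no test, had a median over the sterol genes of 1.31-fold in CORT (0.987-fold to 1.67-fold) and 1.59-fold in vehicle (1.08-fold to 2.22-fold). All 3 libraries of 16 h were above all 3 of 4 h for 14 of the 18 genes in CORT and for 14 in vehicle, against 6.84% of all features in CORT and 10.9% in vehicle. By replicate number, the median log2 difference of 16 h minus 4 h was 0.32, 0.60 and 0.33 in CORT and 1.00, 0.59 and 0.34 in vehicle, so it was positive in each of the 6 pairs and largest in vehicle replicate 1. Deviations from the group means also ran together: 64.6% of the variance of the 18 genes within groups lay on 1 axis, on which all 18 had the same sign, where equal axes would hold 5.56% each. The genes therefore share their libraries' deviations and are not independent observations.

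In the rhythm test 0 of the 34 members passed in CORT, where percent called was 0.0% of features (limma, 0 of 17921; 1056 at an unadjusted p under 0.05), and 0 passed in vehicle, where it was 0.44% (78 of 17717). At an unadjusted p under 0.05 there were 4 members in CORT (Hmgcs1, Acat2, Insig1 and Elovl6; 5.89% of features) and 16 in vehicle (11 sterol, 1 regulator, 4 fatty acid; 12.7% of features). The CORT count depended on single libraries: it was 0 without 24 h replicate 1 (6.02% of features), 1 without any of 4 h replicates 1 and 2 and 16 h replicates 1, 2 and 3, 2 without 12 h replicate 2 or 3, and 3 to 6 without any other. In the test over 6 times, 0 members passed in CORT against 0.0167% of features, and 0 in vehicle against 0.401%. At an unadjusted p under 0.05 there were 4 members in CORT (5.6% of features) and 13 in vehicle, 9 of them sterol (13.9%). Leaving out single libraries, the CORT count was 11 without 24 h replicate 1 (6.07% of features) and 1 to 5 without any other. For late minus early, 0 members passed in CORT against 0.0% of features (limma, 0 of 17921; 977 features at an unadjusted p under 0.05) and 0 in vehicle against 0.164%. The late minus early median of the sterol genes was 0.05 in CORT, with 16 of 18 above 0, and 0.24 in vehicle, with 18 of 18 above 0. At an unadjusted p under 0.05 late minus early held 1 member in CORT (Scd2; 5.45% of features) and 11 in vehicle (6 sterol; 11.3%). The vehicle count was 22 without 12 h replicate 2 (14.5% of features), and the CORT count 2 without 20 h replicate 1 (5.03%).

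The difference of the daily course between treatments was tested directly. In the rhythm difference 0 members passed, against 0.106% of features (limma, 19 of 17867), and at an unadjusted p under 0.05 there were Insig1 and Acaca (4.37% of features). For late minus early, CORT minus vehicle, 0 members passed against 0.0% of features (743 at an unadjusted p under 0.05), and in the difference over 6 times 0 members passed against 0.134%, with 0 at an unadjusted p under 0.05 (5.51% of features). The late minus early difference was nonetheless below 0 for all 18 sterol members, with a median of -0.18 (range -0.39 to -0.07), against -0.00 over all features. Fdps (-0.39 ± 0.16; limma, unadjusted p = 0.0188), Acaca (-0.23 ± 0.10; limma, unadjusted p = 0.0280) and Insig1 (-0.27 ± 0.13; limma, unadjusted p = 0.0472) were under an unadjusted p of 0.05 (4.16% of features). By replicate number the sterol median of this difference was -0.50, -0.06 and -0.07, so it was below 0 in each and largest in replicate 1. Without replicate 1 the median was -0.02 and 6 of 18 sterol members were above 0, so the common direction depends on replicate 1. The treatments are therefore not shown to differ in the daily course of any member.

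**Figure D3:**
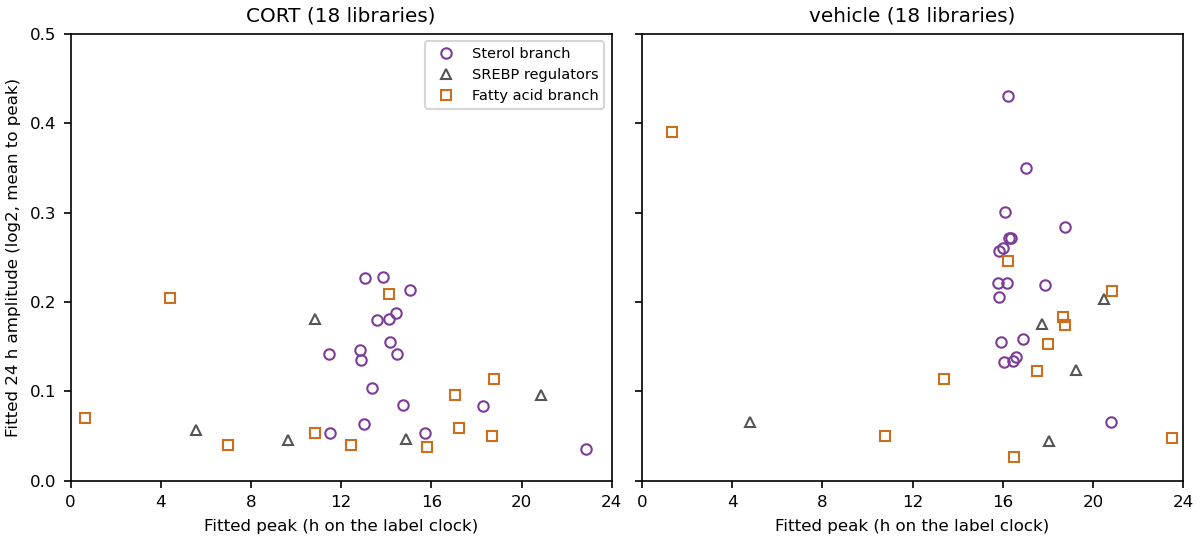
Fitted peak time (h, label clock) against fitted amplitude (log2, mean to peak) of each member in CORT (left) and vehicle (right), coloured by branch. Sterol members have a median peak of 14 h in CORT and 16.3 h in vehicle. At 14 to 20 h, a window that starts at the CORT median, lie 8 of 18 in CORT and 17 of 18 in vehicle.

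These daily patterns were set against the libraries with 2 names. Without the 8 libraries, all 18 sterol members were highest at 16 h in vehicle, whereas in CORT 8 of 18 were. In vehicle 16 of 18 peaks lay at 15 to 18 h, and members under an unadjusted p of 0.05 in the rhythm test numbered 8 in place of 16, while the share of all features was 8.17% in place of 12.7%. In the CORT rhythm 0 members were under 0.05 (4.21% of features). The 16 h over 4 h ratio of the sterol genes then had a median of 1.25-fold in CORT and 1.56-fold in vehicle. Both 16 h libraries were above both of 4 h for 14 of 18 in either treatment, against 13.5% of features in CORT and 22.5% in vehicle. The late minus early median of the sterol genes was 0.02 in CORT, with 10 of 18 above 0, and 0.22 in vehicle, with 18 of 18 above 0. The difference of late minus early was below 0 for all 18, with a median of -0.19, and the replicate 1 libraries were kept in it. With the names of the selected-gene tables, 17 sterol members were highest at 16 h in vehicle and 1 in CORT, the median fitted peak was 8.30 h in CORT and 17.0 h in vehicle, and 0 members had an unadjusted p under 0.05 in the vehicle rhythm, where 3.57% of features did. The CORT count at 16 h and the number of members under 0.05 in vehicle thus depend on which names are right. The authors' table of selected genes over 12 vehicle libraries lists 3 members, Mvd, Idi1 and Sqle, and their other 3 selected tables list 0; they were chosen on the same libraries.

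The regulators did not share 1 hour. Srebf2 (the SREBP best known for sterol genes; chr15:82147181-82205379, plus strand) stood at 2361, 2599.5 and 2908 at 4 h, 2628, 2694 and 2647 at 8 h, 2245, 3052 and 3062 at 12 h, 2277, 3229 and 3027 at 16 h, 2384, 2741 and 2891 at 20 h and 2215, 3031 and 2813 at 24 h in CORT libraries. In vehicle libraries Srebf2 stood at 1837, 2492 and 2221 at 4 h, 1984, 2292 and 2401 at 8 h, 2275, 3204 and 2186 at 12 h, 2691, 3098 and 3004 at 16 h, 2314, 2677 and 2567 at 20 h and 2793, 2826 and 2428 at 24 h. Vehicle 4 h replicate 1 was its lowest library of all, and the vehicle libraries of 16 h were above all 3 of 8 h. Its amplitude was 0.05 ± 0.06 in CORT (limma, adjusted p = 0.986) and 0.18 ± 0.06 in vehicle with a peak at 17.7 ± 1.3 h (limma, adjusted p = 0.355). Srebf1 (the SREBP best known for fatty acid genes; chr11:60199089-60222581, minus strand) stood at 3019, 3741 and 3950.3 at 4 h, 3338, 3963 and 3385 at 8 h, 3338, 3489 and 3871 at 12 h, 3385, 4214 and 3704 at 16 h, 3116, 4687 and 4330.0 at 20 h and 3378, 4648 and 3950.3 at 24 h in CORT libraries. In vehicle libraries Srebf1 stood at 2399, 3426 and 2936 at 4 h, 2513, 2846 and 2766 at 8 h, 3504, 3841 and 2620.3 at 12 h, 2532, 3559 and 3780.5 at 16 h, 3259, 3780.5 and 3611 at 20 h and 3897, 4466 and 3467 at 24 h. At 8 h the 3 CORT libraries were above the 3 vehicle libraries, and at the other 5 times they overlapped. Srebf1 had a vehicle peak at 20.5 ± 1.4 h with an amplitude of 0.20 ± 0.08 (limma, adjusted p = 0.396), where the sterol median was 16.3 h, and an amplitude of 0.10 ± 0.06 in CORT (limma, adjusted p = 0.974).

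Insig1 (which holds Scap in the endoplasmic reticulum and is itself a target of SREBPs; chr5:28071363-28078662, plus strand) stood at 685, 660.2 and 775 at 4 h, 991, 874 and 878 at 8 h, 797, 864 and 887 at 12 h, 811, 929.7 and 773 at 16 h, 572, 696 and 781 at 20 h and 621, 829 and 811 at 24 h in CORT libraries. In vehicle libraries Insig1 stood at 696, 774 and 702 at 4 h, 709.6, 629 and 693 at 8 h, 655, 865 and 679 at 12 h, 899, 891 and 616 at 16 h, 645, 1006 and 856 at 20 h and 702, 815 and 735 at 24 h. Its CORT libraries of 8 h were above those of vehicle, and its highest vehicle library was 20 h replicate 2. Its fitted peak was at 10.9 ± 1.2 h in CORT with an amplitude of 0.18 ± 0.06, and at 19.2 ± 2 h in vehicle with an amplitude of 0.12 ± 0.06; the rhythm difference did not pass (limma, adjusted p = 0.847). Scap (the escort of SREBPs; chr9:110333288-110384950, plus strand) stood at 1298, 1785 and 1913 at 4 h, 1551, 1771 and 1753 at 8 h, 1606, 1612 and 1917 at 12 h, 1482, 1869 and 1638 at 16 h, 1221, 1799 and 1775 at 20 h and 1250.2, 2012 and 1742 at 24 h in CORT libraries. In vehicle libraries Scap stood at 1247, 1626 and 1406 at 4 h, 1233, 1547 and 1444 at 8 h, 1388, 2185 and 1513 at 12 h, 1084, 1614 and 1823 at 16 h, 1393, 1575 and 1540.1 at 20 h and 1589, 1781 and 1549 at 24 h. Replicate 1 was the lowest of the 3 at all 6 times in CORT and at 5 of 6 in vehicle, and the amplitude was 0.05 in CORT and 0.04 in vehicle. Scap shares 13.2% of its exonic bases with 5830462I19Rik on the opposite strand. Insig2, the second Insig gene, had its lowest, median and highest values at 269, 354 and 423 in CORT and 289, 348 and 430.1 in vehicle. The regulator mean in vehicle was lowest at 8 h (-0.16 ± 0.05) and highest at 24 h (0.04 ± 0.09), while CORT means stayed between 0.02 and 0.09.

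The fatty acid branch had a mixed course. Acaca (acetyl-CoA carboxylase, which makes malonyl-CoA; chr11:84129672-84401651, plus strand) stood at 1502, 1708 and 2365 at 4 h, 1501, 1755 and 1791 at 8 h, 1952, 1936 and 1968 at 12 h, 1882, 2017 and 1867 at 16 h, 1650.2, 1873 and 1979 at 20 h and 1801, 1794 and 2023 at 24 h in CORT libraries. In vehicle libraries Acaca stood at 1459, 1609 and 2054 at 4 h, 1581, 1438 and 1435 at 8 h, 1569, 1699.6 and 1599 at 12 h, 1685, 1834 and 1984 at 16 h, 2038, 1982 and 1961 at 20 h and 2080.4, 1939 and 1895 at 24 h. The 9 vehicle values of 16, 20 and 24 h lay between 1685 and 2080.4, and 7 of the 9 values of 4, 8 and 12 h lay below that range, the exceptions being 4 h replicate 3 at 2054 and 12 h replicate 2 at 1699.6. In CORT, 4 h replicate 3 was the highest of the 18 libraries. Acaca had the smallest adjusted p of any member in the vehicle rhythm, with a fitted top at 20.9 ± 0.75 h and an amplitude of 0.21 ± 0.04 (limma, adjusted p = 0.0670), against 0.06 ± 0.06 in CORT (limma, adjusted p = 0.983). Without vehicle 4 h replicate 3 its vehicle rhythm passed (limma, adjusted p = 0.0165). The number of all features that passed without that library is not given here, and it ranged from 4 to 148 over all left-out libraries and replicate numbers. Vehicle 4 h replicate 3 also had the highest sum of adipocyte markers in vehicle, 11894, as described below. Scd2 (a stearoyl-CoA desaturase; chr19:44293674-44306864, plus strand) stood at 9073, 9375 and 9919 at 4 h, 9219, 9554 and 10805 at 8 h, 9001, 8699.9 and 9375 at 12 h, 11139, 12245 and 11899 at 16 h, 9375, 10469.8 and 10560.4 at 20 h and 8699.9, 11384 and 11139 at 24 h in CORT libraries. In vehicle libraries Scd2 stood at 7557, 9073 and 8763 at 4 h, 8023, 8023 and 8139 at 8 h, 8699.9, 9826 and 8287 at 12 h, 10688, 12416 and 10688 at 16 h, 8699.9, 9919 and 9714 at 20 h and 10241, 10560.4 and 9619 at 24 h. Values of 16 h were the 3 highest in vehicle, and 2 of the 3 highest in CORT. Late minus early was 0.20 ± 0.07 in CORT (limma, adjusted p = 0.842) and 0.27 ± 0.06 in vehicle (limma, adjusted p = 0.113).

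Among the elongases, Elovl6 (which extends palmitate; chr3:129532355-129638495, plus strand) stood at 1637, 1526 and 1764 at 4 h, 2017, 1567 and 1965 at 8 h, 1648, 1809 and 2451 at 12 h, 2085, 2263 and 2166 at 16 h, 1766, 1869 and 1777 at 20 h and 1069, 1931 and 1828 at 24 h in CORT libraries. In vehicle libraries Elovl6 stood at 1169, 1527 and 1485 at 4 h, 1492, 1447 and 1383 at 8 h, 1451, 2371 and 1779.6 at 12 h, 1920.5, 2025 and 2244 at 16 h, 1834, 1595 and 1520.1 at 20 h and 1433, 1792 and 1798 at 24 h. It had its peak with the sterol genes, at 14.1 ± 1.4 h in CORT with an amplitude of 0.21 ± 0.08 (limma, adjusted p = 0.834) and at 16.2 ± 1 h in vehicle with an amplitude of 0.25 ± 0.07 (limma, adjusted p = 0.202). CORT 24 h replicate 1 and vehicle 4 h replicate 1 were its lowest libraries. Elovl5 (which extends polyunsaturated fatty acids; chr9:77917364-77984519, plus strand) stood at 808, 958 and 1031 at 4 h, 627, 846 and 864 at 8 h, 1009.9, 754 and 691 at 12 h, 868, 773 and 842 at 16 h, 839.6, 885 and 801 at 20 h and 1028, 730.2 and 801 at 24 h in CORT libraries. In vehicle libraries Elovl5 stood at 985, 892 and 931 at 4 h, 836, 883 and 943 at 8 h, 975, 687 and 1032 at 12 h, 861, 882 and 852 at 16 h, 912, 1019 and 989 at 20 h and 977, 771 and 958 at 24 h. At 20 h its CORT libraries were below those of vehicle, and at the other 5 times they overlapped. Scd1, the other stearoyl-CoA desaturase, had its lowest, median and highest values at 2784, 3319 and 7030.4 in CORT and 2029, 3341 and 6433 in vehicle. Its vehicle amplitude was 0.39 ± 0.12 with a peak at 1.3 ± 1.2 h (limma, adjusted p = 0.268), away from the hours of the sterol genes. Fasn (fatty acid synthase) had 2859, 3882 and 6473 in CORT and 2686, 3737 and 5785 in vehicle.

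The 3 highest libraries of Scd1 and of Acaca were also the 3 with the highest sums of adipocyte markers, which was not so for Fasn. The summed level of 10 adipocyte markers ranged from 3629 to 8459 in CORT, highest in 4 h replicate 3, and from 3696 to 11894 in vehicle, where 4 h replicate 3 had 11894 and 24 h replicate 1 had 10763. Scd1 stood at 7030.4 in CORT 4 h replicate 3, and at 6433 and 6058 in vehicle 4 h replicate 3 and 24 h replicate 1. Acaca stood at 2365, 2054 and 2080.4 in the same libraries, and its next highest library was vehicle 20 h replicate 1 at 2038. Fasn was highest of its CORT libraries in 4 h replicate 3 as well, at 6473, and nearly as high in 16 h replicate 2, at 6411 with a marker sum of 6968. Its highest vehicle value, 5785, was reached in 24 h replicate 1 and also in 16 h replicate 2, whose marker sum of 3728 was the second lowest of vehicle. The sum rests largely on Fabp4 (median 2750 in CORT and 2331.5 in vehicle) and Plin4 (median 1774 in CORT and 1684 in vehicle). Adipoq, which marks adipocytes, was at 0 in 1 CORT and 2 vehicle libraries, and Lep in 2 CORT and 6 vehicle libraries. Adipoq had medians of 14.5 in CORT and 14.7 in vehicle, and reached 317 in CORT and 635 in vehicle. The part of adipocyte RNA in these values was not tested. Acly (ATP citrate lyase, which makes acetyl-CoA from citrate) had its lowest, median and highest values at 2877, 3745 and 4287 in CORT and 2741, 3605 and 4466 in vehicle. Acss2, which makes acetyl-CoA from acetate, had 273, 436 and 542 in CORT and 282, 390.4 and 607 in vehicle. Me1, which supplies NADPH, had 2608, 3275 and 3828 in CORT and 2733, 3092 and 3973 in vehicle. The desaturases Fads1 and Fads2, which act on polyunsaturated fatty acids, were highest in vehicle 12 h replicate 2, as were Acss2 and Me1. Fads1 ranged from 2015 to 2835 in CORT and from 1903 to 2881 in vehicle, and Fads2 from 1563 to 2314 in CORT and from 1521 to 2367 in vehicle.

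**Figure D4:**
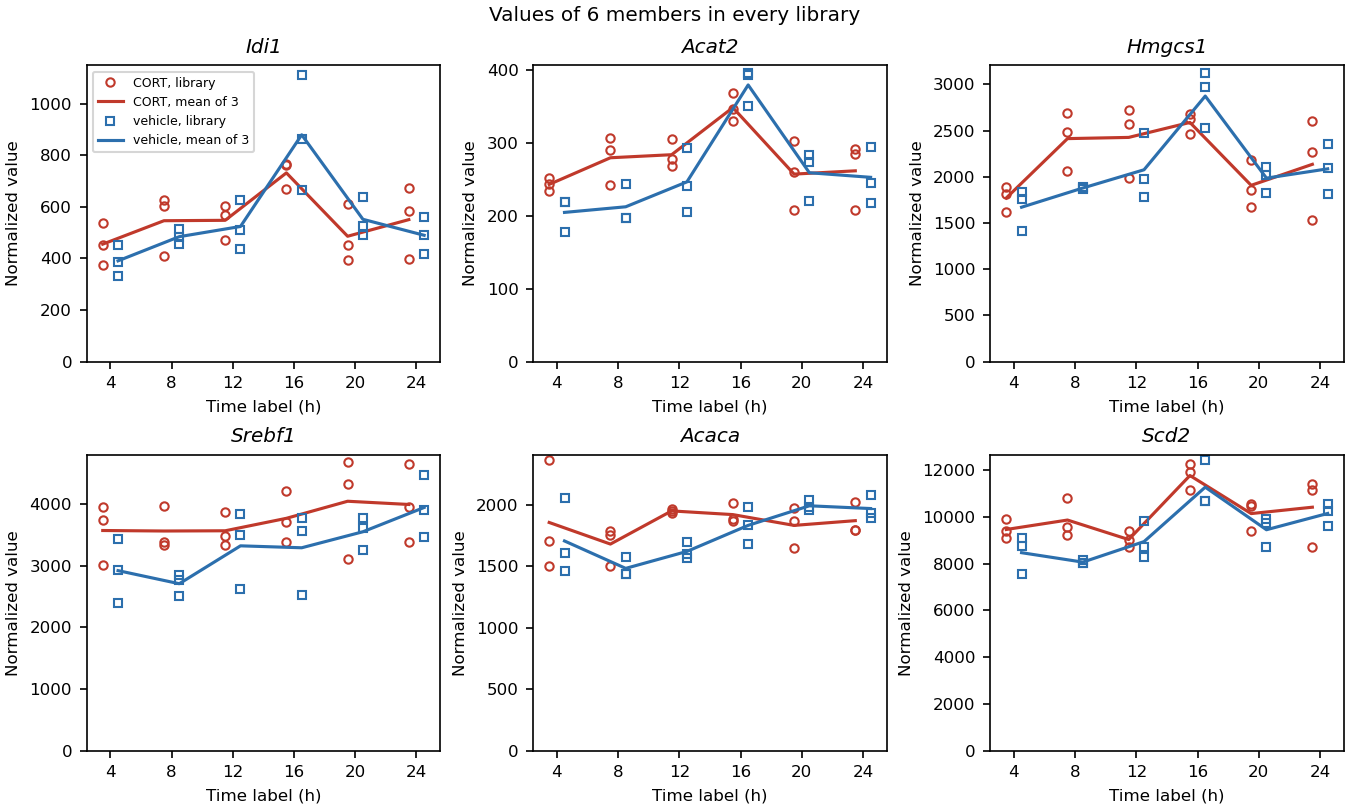
Normalized read counts of Idi1, Acat2, Hmgcs1, Srebf1, Acaca and Scd2 in every library against the time label, with CORT and vehicle side by side (points are libraries, lines the means of 3). The 16 h libraries of Acat2 are the 3 highest in both treatments, while Acaca stays high through 20 and 24 h in vehicle.

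As a branch, the fatty acid genes were highest at 16 h in 5 of 11 cases in CORT and in 4 of 11 in vehicle, against 18% of all features in CORT and 25.6% in vehicle. The 16 h over 4 h ratio had a median of 1.05-fold in CORT and 1.08-fold in vehicle, and all 16 h libraries were above all 4 h libraries for 2 genes in CORT and 3 in vehicle, against 6.84% of all features in CORT and 10.9% in vehicle. The mean of the branch was lowest at 8 h in vehicle, at -0.19 ± 0.01 (SD, n = 3). Within groups, 56.6% of the variance of the 11 genes lay on 1 axis with 9 of 11 of the same sign, and 62.4% of that of the 5 regulators with 4 of 5 of the same sign.

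CORT was then compared with vehicle over the whole day, with the 6 times held in the fit. Of 34 members 0 passed, against 4.21% of features (limma, 752 of 17867; 1.46% higher and 2.75% lower). CORT minus vehicle was above 0 for 29 of 34 members, 15 of 18 sterol, 4 of 5 regulators and 10 of 11 fatty acid, against 57.2% of all features. The medians were 0.05 for sterol, 0.11 for regulators and 0.07 for fatty acid genes, against 0.02 over all features. At an unadjusted p under 0.05 there were 4 members, a share below the 20.6% of all features. Srebf1 had the smallest adjusted p, with CORT minus vehicle at 0.20 ± 0.07 (95% interval 0.06 to 0.34; limma, adjusted p = 0.0900). With the replicate number as a block, Srebf1 and Scd2 passed (limma, adjusted p = 0.0223 and 0.0480), against 0 members without it. The number of all features that passed rose with the block too, to 1220 of 17867 from 752. Replicate numbers pair no samples by the labels. Scd2 was at 0.11 ± 0.04 (0.03 to 0.19; limma, adjusted p = 0.107). Fdps was at 0.17 ± 0.08 (0.01 to 0.34; limma, adjusted p = 0.221) and Stard4 at -0.18 ± 0.09 (-0.36 to -0.01; limma, adjusted p = 0.226). Stard4 was the lowest member, and Elovl5 the next at -0.12 ± 0.06 (-0.24 to 0.00; limma, adjusted p = 0.249). The next largest were Acat2 (0.13 ± 0.07), Elovl6 (0.13 ± 0.07), Acss2 (0.13 ± 0.08), Scap (0.13 ± 0.08), Msmo1 (0.12 ± 0.07), Srebf2 (0.11 ± 0.06) and Sqle (0.11 ± 0.07), all with intervals that include 0. For Idi1, whose range of group means was the widest of the members in vehicle and second to Mvd in CORT, the difference was 0.02 ± 0.09 with an interval of -0.15 to 0.20.

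**Figure D5:**
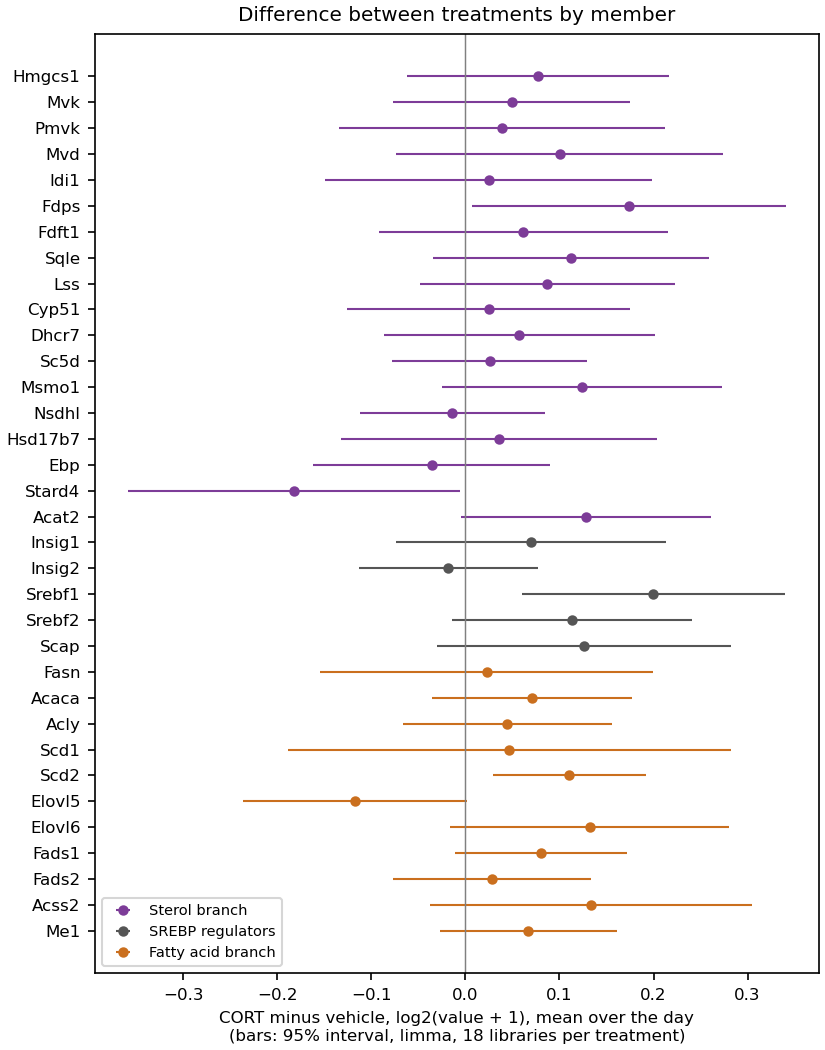
CORT minus vehicle over the whole day for each member on the log2 scale, with 95% intervals, grouped by branch. The points lie between -0.18 (Stard4) and 0.20 (Srebf1), and 29 of 34 are above 0.

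Replicate numbers differed in this comparison. The sterol median of CORT minus vehicle was -0.01, -0.07 and 0.26 in replicates 1, 2 and 3, and the fatty acid median 0.01, 0.03 and 0.15. In replicate 3 alone 19 members and 14.7% of features had an unadjusted p under 0.05 and 0 features passed the adjusted threshold (limma), and without replicate 3 the sterol median was -0.05. Srebf1 was less affected, at 0.16 without replicate 3. Without the 8 libraries of 2 names 1 feature passed in place of 752, and 4 members again had an unadjusted p under 0.05, against 12.3% of features. The medians were then 0.11 for sterol and 0.06 for fatty acid genes, with 31 of 34 members above 0. Without vehicle 12 h replicate 2 the number of members with an unadjusted p under 0.05 was 13, against 25.3% of features, and without CORT 24 h replicate 1 it was 12, against 24.6%; vehicle 12 h replicate 2 held the highest vehicle value of Sc5d, Srebf2, Scap, Elovl6, Fads1, Fads2, Acss2 and Me1. Srebf1 and Scd2 passed without vehicle 12 h replicate 2 (limma, adjusted p = 0.0449 and 0.0473), where 1451 features passed in place of 752. They also passed without CORT 24 h replicate 1 (limma, adjusted p = 0.0406 and 0.0263). Without CORT 20 h replicate 1 Srebf1 passed (limma, adjusted p = 0.0475). The number of all features that passed without either CORT library is not given here.

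By single time, the members were most often above vehicle at 8 h. There 0 of 34 members passed, against 0.795% of features (limma, 142 of 17867), 30 of 34 differences were above 0, and the medians were 0.23 for sterol, 0.27 for regulators and 0.19 for fatty acid genes, against 0.05 over all features. All 3 CORT libraries were above all 3 vehicle libraries for 19 members against 12.6% of features, and below for 0 members against 10.6%. The 19 were Hmgcs1, Mvk, Fdps, Fdft1, Sqle, Dhcr7, Sc5d and Msmo1 of the sterol branch, Insig1, Srebf1, Srebf2 and Scap, and Fasn, Acly, Scd2, Elovl6, Fads1, Acss2 and Me1. Scd2 averaged 9859 ± 836 in CORT and 8061 ± 67.5 in vehicle (SD, n = 3 each), a difference of 0.29 ± 0.10 (limma, adjusted p = 0.149). Insig1 averaged 914 ± 66.8 in CORT and 677 ± 42.8 in vehicle, a difference of 0.43 ± 0.16 (limma, adjusted p = 0.173). Acat2, at 0.40 ± 0.15, Fdps, at 0.42 ± 0.19, Fdft1, at 0.41 ± 0.18, Srebf1, at 0.39 ± 0.17, Hmgcs1, at 0.35 ± 0.16, and Fads1, at 0.24 ± 0.11, were the other 6 with an unadjusted p under 0.05, which held for 15.1% of features. By replicate number the 8 h sterol median was 0.40, 0.01 and 0.38 and the fatty acid median 0.20, 0.11 and 0.29, so replicate 2, whose 8 h libraries carry 2 names, showed the least. Without the libraries of 2 names the medians were 0.37 and 0.23. The 8 members under an unadjusted p of 0.05 numbered 3 without CORT 8 h replicate 1 (10.5% of features) or vehicle 8 h replicate 1 (14.4%), 4 without vehicle 8 h replicate 3 (10.8%) and 5 without CORT 8 h replicate 3 (16.2%). Cell type markers differed at 8 h too. The 6 cell division markers had a median difference of -1.40 and 4 passed as lower in CORT, and the 6 endothelial markers had a median of -0.74 and 2 passed as lower. Of 7 fibroblast markers 2 passed as lower (median -0.31), and of 7 macrophage markers 1 did (median -0.32). The 9 urothelial markers had a median of 0.32, 8 of them above 0, and 0 passed. The part of these cell types in the 8 h values was not tested.

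At the other 5 times no member passed, and at most 1 was under an unadjusted p of 0.05. The shares of features that passed were 0.162% at 4 h, 0.0448% at 12 h, 0.0112% at 16 h, 0.0% at 20 h (limma, 0 of 17867; 1073 at an unadjusted p under 0.05) and 0.0336% at 24 h. At 4 h, 28 of 34 differences were above 0, and Fdps, Msmo1 and Acat2 had all CORT libraries above all vehicle libraries (7.08% of features), while 0 members had them all below (6.29% of features); 0 members and 6.9% of features had an unadjusted p under 0.05. At 12 h Acaca lay above without overlap (3.15% of features) and 0 members below (3.34%), and its difference was 0.27 ± 0.12 (limma, unadjusted p = 0.0392; 4.51% of features under 0.05). At 16 h the sterol branch was on the other side, with 2 of 18 differences above 0 and a median of -0.12, or -0.13 without the libraries of 2 names (0 members under an unadjusted p of 0.05, 4.05% of features), while 8 of 11 fatty acid differences were above 0. Stard4 had the largest of these, at -0.40 ± 0.22 (limma, unadjusted p = 0.0837), and Idi1 was at -0.24 ± 0.21. By replicate number the 16 h sterol median was -0.32, -0.15 and 0.15, so replicate 3 was opposite in sign. No member was free of overlap at 16 h, with 3.03% of features above and 3.24% below, or at 24 h, with 6.11% above and 4.84% below. At 20 h Me1 lay above (8.55% of features) and Elovl5 below (6.05% of features) without overlap, and the sterol median was -0.04 with 5 of 18 above 0. At 24 h, 18 of 34 were above 0 and the sterol median was 0.03. An unadjusted p under 0.05 was found for 0 members at 20 h (6.01% of features) and 0 at 24 h (6.31% of features).

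Other genes of the same pathways were taken from lists of sterol handling and lipid synthesis genes. Of 22 other sterol genes tested, 0 passed for CORT against vehicle over the day and 0 had an unadjusted p under 0.05 (limma), 1 had one at 8 h and 7 in the vehicle rhythm. Of 21 other fatty acid and lipid genes tested, 1 passed over the day, Elovl7, an elongase, at 0.31 ± 0.09 (limma, adjusted p = 0.0382), and 4 had an unadjusted p under 0.05. At 8 h 4 of them and in the vehicle rhythm 5 did. Of all features, 4.21% passed over the day. An unadjusted p under 0.05 was held by 20.6% of features over the day, 15.1% at 8 h and 12.7% in the vehicle rhythm. In late minus early in vehicle, 2 of the 22 other sterol and 5 of the 21 other fatty acid genes had an unadjusted p under 0.05, and so did 6 of the 18 sterol and 3 of the 11 fatty acid members and 11.3% of all features; whether the lists differ was not tested.

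Markers of the tissue were read beside these results. The summed level of 9 urothelial markers ranged from 50486 to 89456 in CORT with a median of 73322, and from 47221 to 109912 in vehicle with a median of 64278. Upk1a, a uroplakin that defines the urothelium, ranged from 10360.1 to 19007 in CORT and from 9554 to 30385 in vehicle, and was thus detected in every library. All 9 urothelial markers had CORT minus vehicle above 0 and 1 passed, Upk3a at 0.25 (limma, adjusted p = 0.0489). The 6 endothelial and 6 cell division markers passed as lower in CORT, as did 2 of 7 fibroblast and 1 of 7 macrophage markers. None of the 10 adipocyte, 7 smooth muscle, 7 T and NK cell, 7 striated muscle, 5 erythroid and 6 Schwann cell markers tested passed, nor did the 1 brown adipocyte marker tested. The lowest sterol library of each treatment also had its lowest urothelial sum: CORT 24 h replicate 1 had a sterol mean of -0.35 with a sum of 50486, and vehicle 4 h replicate 1 had -0.42 with 47221. In CORT the highest sterol library, 16 h replicate 2 at 0.31, also had the highest urothelial sum, 89456. In vehicle the highest sterol library, 16 h replicate 1 at 0.58, had a sum of 63506, while the highest sum, 109912, was in 12 h replicate 2. The part of the urothelial share in the sterol values was not tested.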

How the data were processed

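RNA was rRNA-depleted and made into directional libraries, per the labels' protocols. Per the submitters' processing notes the build is mm10. The aligner and the counting program were not given in the sources used here. Tables of 12 libraries deposited by the authors hold a signal for every gene on a linear scale. Each library of a table has the same sorted values, so the signal is a quantile-normalized read count. The authors also deposited log2 values of genes they selected, used only to see which members they list and how libraries are named. Each of the 132 columns of values was tied to its sample through its name.

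Here, ranks were used to put the 18 libraries of a treatment, and all 36, on common scales. Values were tested as log2(value + 1), with features left out of a fit where over 0.50 of its libraries had the lowest value. The tests used limma 3.58.1 (R 4.3.3) and Benjamini-Hochberg adjustment at 0.05 over all features. CORT against vehicle, its value at each time and the treatment differences used 36 libraries, with time or treatment as a term; rhythm (24 h), time and late minus early used 18 libraries per treatment. The scripts were tested on simulated data. Other tools were Python 3.11.15, numpy 2.4.6, pandas 2.3.3 and matplotlib 3.10.9. Genes at low values rest on few reads, and a single library's total cannot be taken from normalized values.

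The members and lists were chosen with earlier results of these data known. Library values are printed for the 3 members of each branch with the smallest p for CORT against vehicle and for the vehicle rhythm, and other members by range. Gene positions are from GENCODE M21. The replicate numbers share no stated animal or batch. Deviations of same-numbered CORT and vehicle samples of a time had a median correlation of 0.046 over 18 pairs, 5 of them over 0.1. For samples of different number the median was -0.014 over 36 pairs, 1 of them over 0.1. Whether the numbers mark linked samples was not tested. Alternatives were other pseudocounts (0.5 and 10), other filters, an intensity trend, library weights, a replicate block, single replicate numbers, and other names for 8 libraries.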

Additional observations from a re-analysis of the deposited data

How the results depend on the processing

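No member passed in the tests as reported, and the number that passed differed from 0 in 18 of 433 alternative values. In the vehicle rhythm 1 member passed with a pseudocount of 10 (Acaca, limma, adjusted p = 0.0434), 1 with a mean of at least 10 (Acaca, adjusted p = 0.0406), 2 with an intensity trend (Acaca and Idi1, adjusted p = 0.0293 and 0.0435) and 1 with library weights (Acaca, adjusted p = 0.0413). Over the 6 times in vehicle 3 passed with an intensity trend (Acat2, Hmgcs1 and Idi1), 21 with library weights (15 sterol, among them Fdps at an adjusted p of 0.00146) and 1 with a replicate block (Acat2, adjusted p = 0.0374). For CORT against vehicle 2 passed with library weights (Scd2 and Srebf1, adjusted p = 0.0236 and 0.0248) and 2 with the replicate block (0.0480 and 0.0223), and at single times 1 passed with library weights (Scd2 at an adjusted p of 0.0446). The cause of these differences was not tested. With the replicate block 1220 of 17867 features passed for CORT against vehicle and 76 of 17717 over the 6 times in vehicle. For the other settings the shares of all features are not given here. Their member counts can therefore not be set against a background. The replicate block changed no other call of a member, and replicate numbers pair no samples by the labels.

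Leaving out single libraries or replicate numbers, the count ranged from 0 to 2 for CORT against vehicle, from 0 to 1 for the vehicle rhythm (Idi1 without vehicle 12 h replicate 1, Acaca without vehicle 4 h replicate 3), from 0 to 2 for late minus early in vehicle (Fdps and Scd2 without vehicle 12 h replicate 2, Acaca without vehicle 4 h replicate 3), and from 0 to 1 over the 6 times in vehicle (Idi1 without vehicle 16 h replicate 3). It was 0 to 0 in the other 7 tests. Of 1053 values for single members, 1033 kept direction and side of the threshold, 16 passed only in the alternative and 4 reversed. The CORT minus vehicle values that reversed were Stard4 at 0.0221 with replicate 3 alone, Hmgcs1 at -0.0077 and Idi1 at -0.0775 without replicate 3, and Idi1 at -0.0015 without CORT 24 h replicate 3. Without 1 library or replicate number Hmgcs1 ranged from -0.0077 to 0.126 and Idi1 from -0.0775 to 0.151. Counts over all features moved more: without 1 library or replicate number, those that passed ranged from 0 to 1451 for CORT against vehicle, from 4 to 148 for the vehicle rhythm and from 0 to 123 for late minus early in vehicle. The first and last were highest without vehicle 12 h replicate 2, and the vehicle rhythm without vehicle 12 h replicate 1. Over the 6 times in vehicle they ranged from 0 to 407, highest without vehicle 16 h replicate 3.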

Other observations

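The clock genes of the same libraries, chosen after their values were seen, give a scale for the fitted hours of the sterol genes. Dbp, driven directly by the core clock, had its fitted peak at 3.06 h in CORT and 10.3 h in vehicle, and the rhythm difference passed (limma, adjusted p = 5.92e-05). Nr1d1, a repressor of the clock, peaked at 2.25 h in CORT and 7.88 h in vehicle (limma, adjusted p = 0.000245), and Arntl, an activator, at 15.7 h in CORT and 23.7 h in vehicle (limma, adjusted p = 0.000731). In CORT alone the rhythm of none of the 3 passed (limma, adjusted p = 0.542, 0.402 and 0.745), so those hours are poorly placed. The clock genes were fitted under the names of the full tables alone, and the sterol hours in CORT depended on which names were used. The median fitted peak of the 18 sterol members was 14 h in CORT and 16.3 h in vehicle, and the difference between clock and sterol genes in this respect was not tested.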
